A study of Bos taurus with 12 samples.

Results

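The genes examined here are those of bone morphogenetic protein (BMP) signalling in the growth plate: the ligands BMP2, BMP4, BMP7 and GDF5, the receptors ACVR1, BMPR1A and BMPR2, and the target genes ID1, ID2 and ID3. They were found by the gene symbols of the array platform's annotation, which gave 17 probe sets for these 10 genes, out of 24016 probe sets that are not controls and 9155 named genes. Every probe set was kept separately, and 6 of the genes had more than 1. The samples were chondrocytes from the growth plate at the lower end of the metacarpal bone of male dairy cattle younger than 10 months. Cells were freed by 4 hours of collagenase digestion and parted by density into hypertrophic zone (HZ, the lightest) and reserve zone (RZ, the heaviest) cells, with 1 array of each zone in each of 6 pairs. No animal was treated, and the labels name no breed or genotype. The labels do not say whether a pair came from 1 animal, so the p-values below cover the spread between pairs, which may be technical.

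BMPs are secreted dimers that draw together type I and type II receptors on the cell surface. The type II receptor activates the type I receptor, which phosphorylates SMAD1, SMAD5 and SMAD9; these enter the nucleus with SMAD4 and switch on target genes, of which the ID genes are the classic examples. ID proteins lack a DNA-binding region and hold back basic helix-loop-helix factors by pairing with them. In cartilage, BMP signals are needed to form chondrocytes and to let them proliferate and enlarge, and activating mutations of ACVR1 cause bone to form in soft tissue.

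Values are signals rebuilt from deposited ratios, in units in which the median probe set of each array is 96.7. A difference is HZ minus RZ on the scale of log2(signal + 16), which understates the change of dim probe sets. Zones were compared with limma, with the pair as a block, and a probe set is said to have risen or fallen when its adjusted p (Benjamini-Hochberg over all 24016 probe sets) was under 0.05. Where a gene had several probe sets, they are numbered from the brightest to the dimmest. Levels of different probe sets are not comparable with each other.

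In HZ cells, transcripts of the type I receptor ACVR1 and of the target gene ID3 fell, as did 1 of the 2 probe sets of the type I receptor BMPR1A, and 1 of the 2 probe sets of the ligand BMP7 rose. ACVR1 was 1.89-fold lower in HZ at its brighter probe set and 3.16-fold lower at its dimmer one, and ID3 was 1.95-fold lower. BMP2, BMP4, GDF5, BMPR2, ID1 and ID2 did not pass, although ID1 was lower in HZ in 6 of 6 pairs. In all, 1 of the 17 probe sets rose and 4 fell (29.4% together). Over all probe sets tested 6.22% passed, with 3.26% rising and 2.96% falling. Both ACVR1 probe sets are among the 4 that fell. Counted by the brightest probe set of each gene, ACVR1 and ID3 fell and no member rose. Over all genes counted that way, 4.17% rose and 3.56% fell. The median difference of the 17 was 0.01, beside -0.01 over all probe sets. Of the 17, 8 had the same sign in all 6 pairs, 2 above and 6 below 0, where the share over all probe sets was 14.0% (6.85% above and 7.15% below). For 1 of the 17, lower in HZ, the ranges of the zones did not overlap, where that share was 2.89% (1.68% higher and 1.21% lower). Left-out pairs, the added constant and the block moved most of these calls, and each loss is given with its gene. The dimmer ACVR1 probe set was the only 1 of the 5 to pass under every constant, without the block and with each pair left out in turn.

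**Figure D1:**
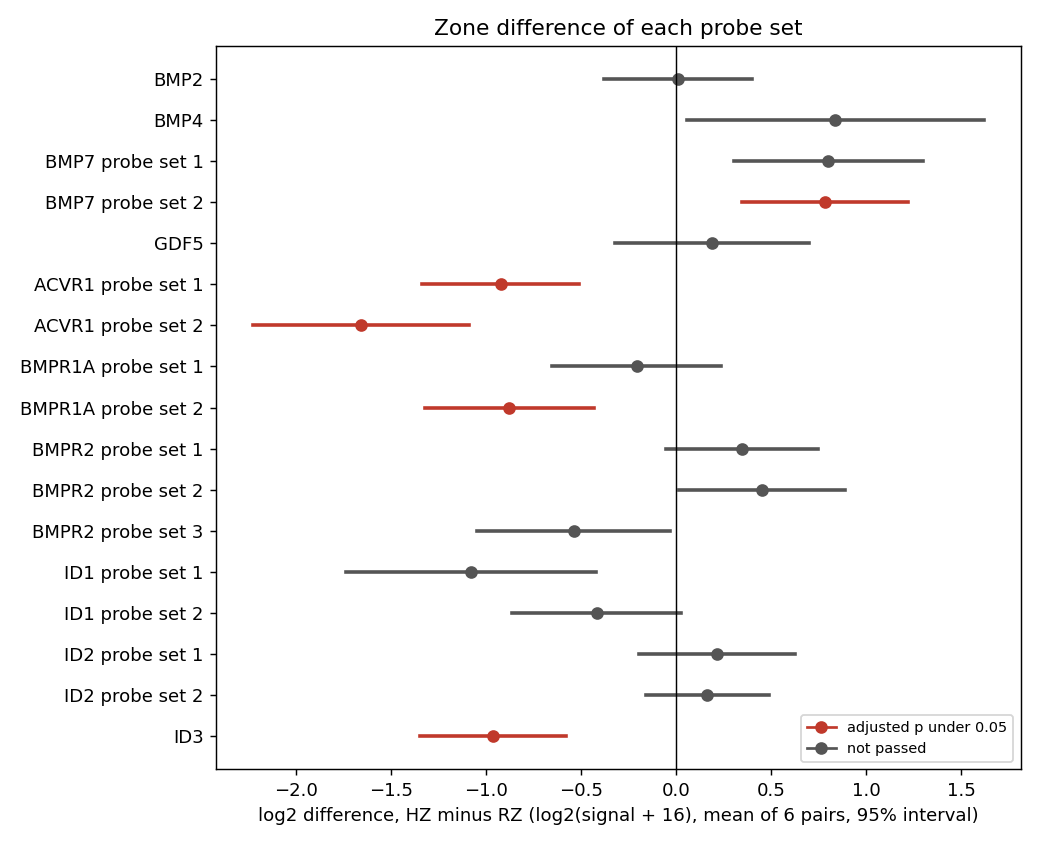
Difference between zones (HZ minus RZ, log2(signal + 16)) of each of the 17 probe sets, as the mean of 6 pairs with its 95% interval; red marks an adjusted p under 0.05. The 4 probe sets of ACVR1, BMPR1A and ID3 that passed lie between -1.66 and -0.88, and the 1 of BMP7 that passed lies at 0.78.

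Array quality and the makeup of the fractions set the frame for these values. The pairs fall into groups, 1 and 2 against 3 to 6, by the smallest step of the deposited ratios (0.0237 to 0.0318 against 0.00884 to 0.0110). No label names such a batch, both zones are in both groups, and within-group differences are given below. A fit with a term for these groups sets 2 pairs against 4 and called 2 of 24016 probe sets, so it says little about whether the 17 differed between them (limma, lowest adjusted p = 0.978; 1 of 17 with an unadjusted p under 0.05). The log2 ratio of 3' to 5' actin probes, a sign of RNA integrity, averaged 3.03 ± 0.685 for HZ arrays against 2.34 ± 0.453 for RZ arrays (SD, n = 6). HZ had the higher actin ratio in 5 of 6 pairs. The same ratio of GAPDH probes averaged 0.519 ± 0.651 for HZ against 0.103 ± 0.285 for RZ (SD, n = 6), also higher in HZ in 5 of 6 pairs. The part of RNA integrity in the differences was not tested. Of 8 hypertrophic zone markers, 5 rose (MMP13, IHH, PTH1R, ALPL and MEF2C) and 0 fell, and the 4 measured reserve zone markers (PTHLH, SFRP5, CLU and APOE) fell, beside 4.17% of genes rising and 3.56% falling by their brightest probe set. The marker lists were written with earlier results of these data known, so these counts are no independent test of zone identity. With each pair left out in turn, ALPL and PTHLH passed in 1 of 6 fits, APOE in 3 and the rest in 6. Without the pair block, MMP13, IHH and SFRP5 passed. PTH1R, ALPL, MEF2C, PTHLH, CLU and APOE did not pass in that fit (limma adjusted p = 0.0537 to 0.271). COL10A1, the collagen that defines hypertrophy, gave 21620 ± 4513 on the HZ arrays against 20147 ± 4698 on the RZ arrays (SD, n = 6; limma adjusted p = 0.755). Chondrocyte markers, among them COL2A1 and ACAN, were measured in both zones, and 0 of 7 passed (limma; 0 with an unadjusted p under 0.05). Saturation at such signals was not tested, so no lack of change is read from them. For IBSP, a matrix protein gene, the brightest probe set (11710 in HZ and 10723 in RZ) differed by 0.14 and its other probe set by 2.20, which passed. In bulk RNA, fewer cells of a type and less RNA per cell cannot be told apart.

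Among the ligands, BMP7 was the member with a rise. BMP7 takes part in skeletal and kidney development, and it had 2 probe sets, Bt.1756.1.S1_at and Bt.1756.2.S1_at. The signal of the dimmer one ran from 35.9 through a median of 81.5 to 202 in HZ, and from 11.9 through 36.2 to 104 in RZ. HZ was above RZ in 6 of 6 pairs, by 0.40 (pair 6) to 1.77 (pair 5), while the ranges of the zones overlapped. The rise was 0.78 ± 0.20 (SE, limma adjusted p = 0.0461), a 1.72-fold higher value in HZ, at 0.67 for pairs 1 and 2 alone and 0.84 for the remaining pairs. The call was lost in each of the 6 fits with a pair left out (adjusted p = 0.120, 0.0718, 0.0625, 0.104, 0.0988 and 0.0706 without pairs 1 to 6) and without the pair block (adjusted p = 0.343). It was lost as well with a constant of 1 in place of 16 (adjusted p = 0.109) or the deposited ratio itself (0.121).

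The brighter BMP7 probe set gave nearly the same difference without passing. Its signal had a lowest value of 69.5, a median of 133 and a highest of 416 in HZ, against 61.1, 74.2 and 130 in RZ. HZ was higher in 6 of 6 pairs, but by 0.01 in pair 3 and by 1.94 in pair 1. The difference was 0.80 ± 0.22 (SE, limma adjusted p = 0.0657). Without pair 1 it was 0.57 (adjusted p = 0.136), and without pair 3 it was 0.96 and passed (adjusted p = 0.0421). Within pairs 1 and 2 it stood at 1.31, and within pairs 3 to 6 at 0.55. The 2 probe sets did not differ from each other by a detectable amount, with a mean difference of 0.02 over the pairs (exact two-sided sign-flip test, p = 0.906; this test of probe sets of 1 gene was added after the data were seen).

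BMP4 signals through the same receptors as BMP2. Its single probe set, Bt.28459.1.S1_at, gave signals of 39.1, 64.03 and 345 (lowest, median, highest) in HZ and 29.2, 42.5 and 48.6 in RZ. In HZ, 5 of the 6 arrays lay above every RZ array, and HZ-1 was the highest. The pair differences were 2.999 in pair 1, 0.57, 0.80, 0.55 and 0.34 in pairs 2, 4, 5 and 6, and -0.23 in pair 3. Their mean of 0.84 ± 0.35 (SE) did not pass (limma adjusted p = 0.194), and its 95% interval ran from 0.06 to 1.62. Without pair 1 the difference was 0.41 (adjusted p = 0.307). Within pairs 3 to 6 it was 0.37, and within pairs 1 and 2 it was 1.78.

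BMP2 did not differ detectably between zones. This ligand induces cartilage and bone formation. Its probe set, Bt.29956.1.A1_at, gave 2179, 3098 and 3704 (lowest, median, highest) in HZ and 2694, 2906 and 3653 in RZ. The ranges overlapped almost fully, and HZ was the higher zone in 4 of 6 pairs. The mean difference was 0.01 ± 0.17 (SE, limma adjusted p = 0.984), with a 95% interval from -0.38 to 0.40.

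GDF5, a ligand of joint formation that prefers the receptor BMPR1B, varied widely within both zones. Its probe set, Bt.13136.1.S1_at, gave 14.9, 49.8 and 113 (lowest, median, highest) in HZ and 13.4, 40.2 and 89.9 in RZ. HZ was higher in 3 pairs and lower in 3, from -0.54 in pair 1 to 1.25 in pair 5. The mean was 0.19 ± 0.23 (SE, limma adjusted p = 0.696; 95% interval -0.32 to 0.70). It was -0.40 within pairs 1 and 2 and 0.48 within pairs 3 to 6, and -0.02 without pair 5.

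**Figure D2:**
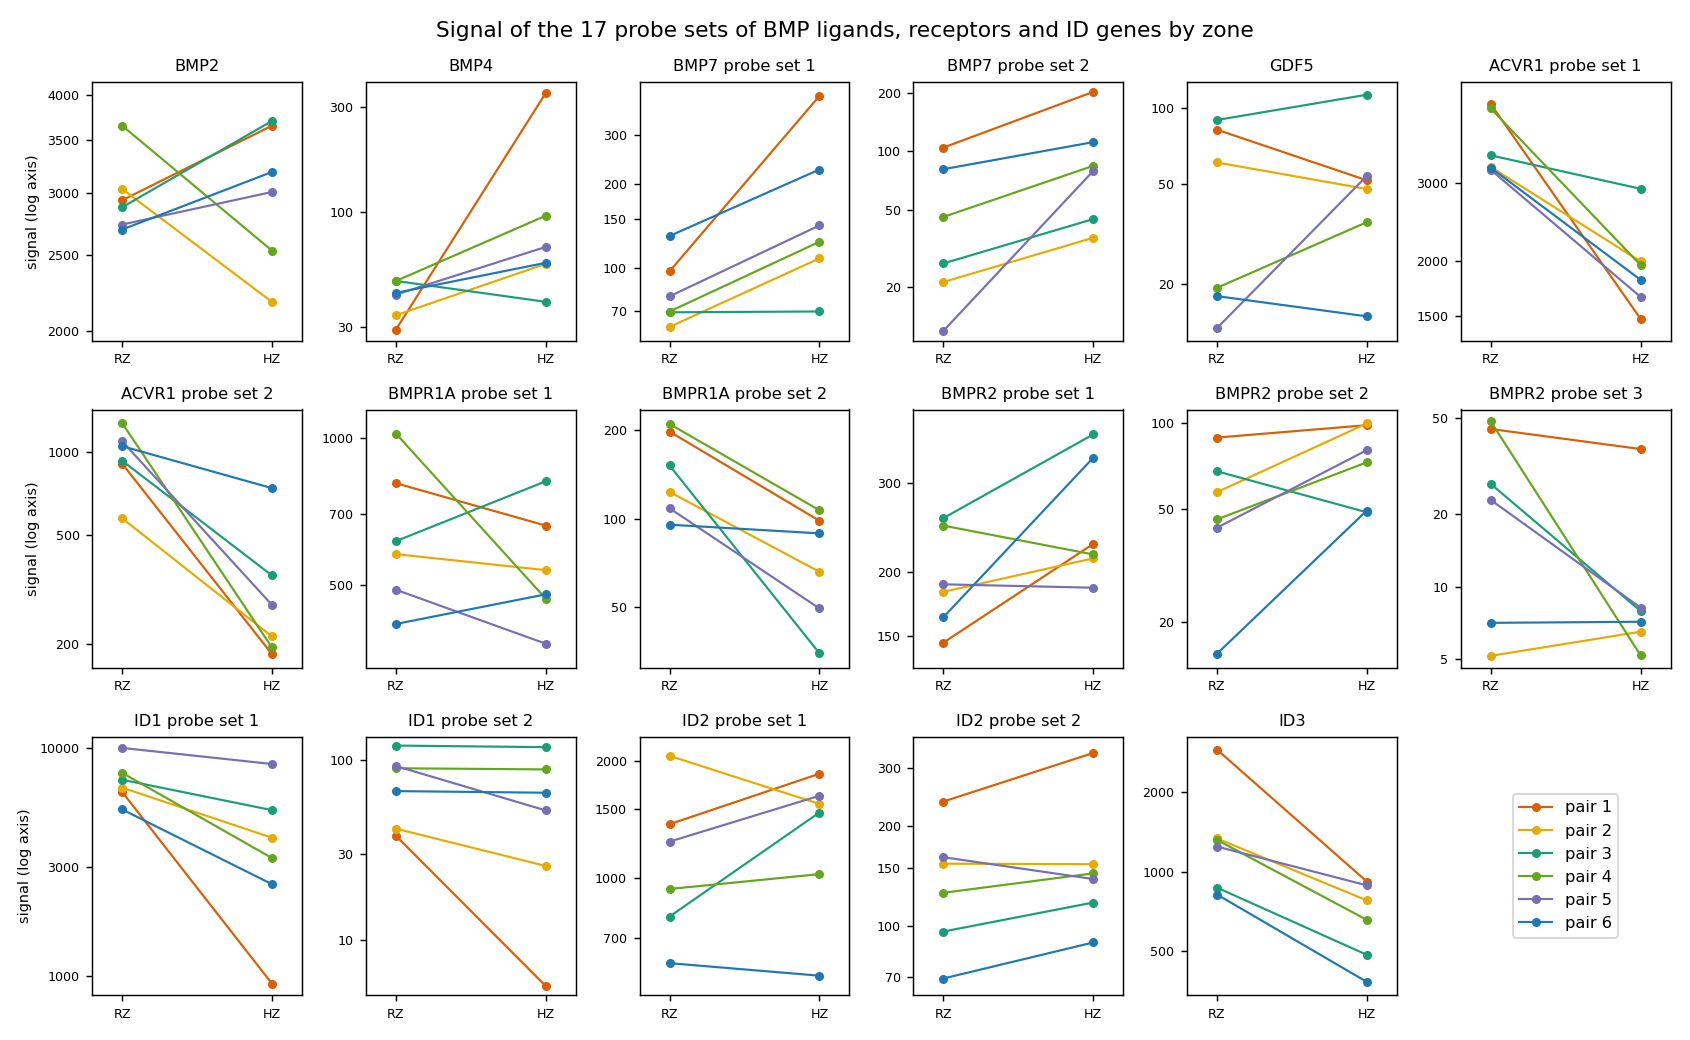
Signal (log axis, scaled separately in each panel) of the 17 probe sets on the 12 arrays, with a line joining the RZ and HZ array of each of the 6 pairs. The lines of ACVR1, ID1, ID3 and BMPR1A probe set 2 all slope down to HZ and those of BMP7 slope up, and HZ-1 is the highest HZ array for BMP4 (345) and the lowest for ID1 probe set 1 (927).

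Among the receptors, ACVR1 fell at both of its probe sets, whose names share the number 16020.1. Whether these 2 probe sets are independent measures was not tested. ACVR1, also called ALK2, is a type I receptor for BMP6 and BMP7 in particular. Its brighter probe set, Bt.16020.1.A2_at, gave 1475, 1881 and 2910 (lowest, median, highest) in HZ and 3213, 3363 and 4530 in RZ. The ranges did not overlap, as all 6 HZ arrays lay below every RZ array. The pair differences ran from -1.61 in pair 1 to -0.25 in pair 3, and their mean was -0.92 ± 0.18 (SE, limma adjusted p = 0.0209). It was -1.16 within pairs 1 and 2 and -0.80 within pairs 3 to 6. The call held without the pair block (adjusted p = 0.0134) and in 2 of the 6 fits with a pair left out, and it was lost without pair 1, 4, 5 or 6 (adjusted p = 0.0615, 0.0694, 0.0663 and 0.0514). A constant of 1 (adjusted p = 0.0633) or the deposited ratio (0.0696) ended it too.

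The dimmer ACVR1 probe set, Bt.16020.1.A1_at, showed the largest difference of the 17. Its signal was 184, 246 and 741 (lowest, median, highest) in HZ and 576, 993 and 1279 in RZ. HZ-6, at 741, was the 1 HZ array inside the RZ range, and the other 5 lay below every RZ array. The difference was -1.66 ± 0.25 (SE, limma adjusted p = 0.00802), lower in 6 of 6 pairs, from -2.62 in pair 4 to -0.50 in pair 6. It passed in all 6 fits with a pair left out, with adjusted p from 0.00747 to 0.0353, and was -1.79 within pairs 1 and 2 and -1.60 within pairs 3 to 6. The brighter probe set fell less than the dimmer one in 5 of 6 pairs, by 0.74 on average (exact two-sided sign-flip test, p = 0.0625, adjusted p = 0.125 over 8 comparisons).

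BMPR1A, or ALK3, is the main type I receptor for BMP2 and BMP4 in cartilage, and 1 of its 2 probe sets passed. The dimmer one, Bt.18693.1.S1_at, gave 35.0, 77.6 and 107 (lowest, median, highest) in HZ and 95.4, 137 and 210 in RZ. HZ was lower in 6 of 6 pairs, although the ranges overlapped, and the pair differences ran from -1.72 in pair 3 to -0.08 in pair 6. It fell by 0.88 ± 0.20 (SE, limma adjusted p = 0.0324), with -0.83 within pairs 1 and 2 and -0.90 within pairs 3 to 6. The call was kept without pair 6 (adjusted p = 0.0299) and lost without pairs 1 to 5 in turn (adjusted p = 0.0896, 0.0655, 0.0505, 0.0869 and 0.0909). It was also lost without the pair block (adjusted p = 0.0731), with a constant of 1 (0.0816) and with the deposited ratio (0.0897).

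The brighter BMPR1A probe set, Bt.27107.1.A1_at, did not pass. It gave 379, 507 and 815 (lowest, median, highest) in HZ and 416, 596 and 1021 in RZ, with overlapping ranges. HZ was lower in 4 pairs and higher in 2, and the mean difference was -0.21 ± 0.20 (SE, limma adjusted p = 0.604; 95% interval -0.65 to 0.24). The 2 probe sets differed by 0.67 on average, in the same direction in 5 of 6 pairs (exact two-sided sign-flip test, p = 0.0625, adjusted p = 0.125).

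BMPR2, the type II receptor that serves BMPs and not TGF-beta, had 3 probe sets, and none passed. The brightest, Bt.25715.1.A1_at, gave 187, 222 and 374 (lowest, median, highest) in HZ and 145, 186 and 256 in RZ. Its difference was 0.35 ± 0.18 (SE, limma adjusted p = 0.289; 95% interval -0.05 to 0.75), higher in HZ in 4 of 6 pairs. The next, Bt.27982.1.S1_at, gave 0.45 ± 0.20 (adjusted p = 0.212), higher in 5 of 6 pairs. The dimmest, Bt.27982.1.A1_at, pointed the other way at -0.54 ± 0.23 (adjusted p = 0.198). It was near the bottom of the scale, with a median of 7.54 in HZ and 24.8 in RZ, and HZ-1 at 37.3 was the 1 HZ array above 8.19. The platform annotation derives the latter 2 probe sets from the same sequence record. The brightest lay above the dimmest in its difference in 6 of 6 pairs, by 0.89 (exact two-sided sign-flip test, p = 0.03125, adjusted p = 0.125).

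**Figure D3:**
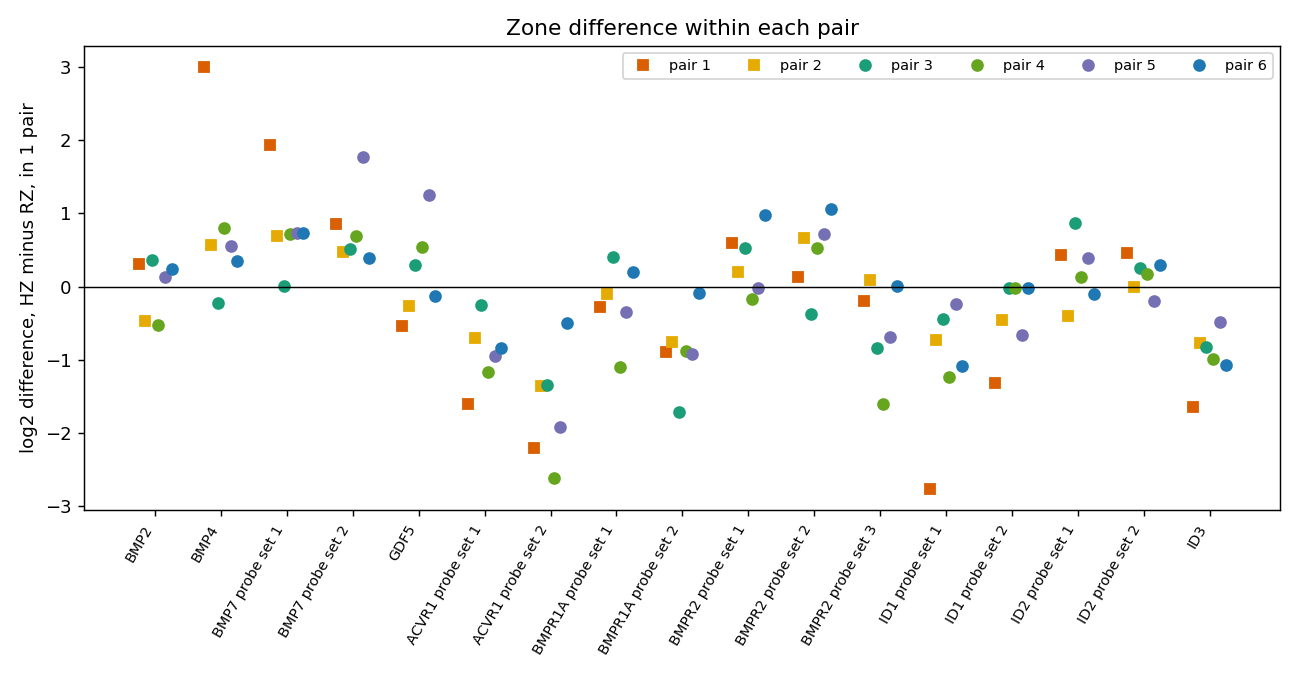
Difference between zones (HZ minus RZ, log2(signal + 16)) within each of the 6 pairs for each probe set; squares mark pairs 1 and 2 and circles pairs 3 to 6. Both ACVR1 probe sets, ID3 and ID1 are below 0 in all 6 pairs, and pair 1 holds the most extreme value for BMP4 (2.999), ID1 probe set 1 (-2.76) and ID3 (-1.65).

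Among the target genes, ID3 fell. Its single probe set, Bt.5230.1.S1_at, gave 381, 717 and 916 (lowest, median, highest) in HZ and 818, 1282 and 2904 in RZ. RZ-1, at 2904, was the highest array, and 4 HZ arrays lay below every RZ array, so that the ranges overlapped in part. HZ was lower in 6 of 6 pairs, from -1.65 in pair 1 to -0.48 in pair 5. The fall was -0.96 ± 0.17 (SE, limma adjusted p = 0.0131), and -1.21 within pairs 1 and 2 against -0.84 within pairs 3 to 6. All 6 fits with a pair left out kept the call, with adjusted p from 0.0271 to 0.0455. Without the pair block the same difference did not pass (adjusted p = 0.104), nor did that of the deposited ratio (0.0506).

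ID1, the ID gene most often used to read out BMP signalling, was lower in HZ in every pair at both probe sets without passing. The brighter one, Bt.1730.1.A1_at, gave 927, 3658 and 8470 (lowest, median, highest) in HZ and 5360, 6953 and 9961 in RZ. In HZ, 5 of the 6 arrays lay below every RZ array, and HZ-5, at 8470, was inside the RZ range. The pair differences ran from -2.76 in pair 1 to -0.23 in pair 5, with a mean of -1.08 ± 0.29 (SE, limma adjusted p = 0.0616; 95% interval -1.74 to -0.42). Without pair 1 it was -0.74 (adjusted p = 0.0900). When only the probe sets with a mean signal of 64 or more were tested, the same difference passed (adjusted p = 0.0186). The dimmer one, Bt.1730.2.A1_at, gave -0.42 ± 0.20 (adjusted p = 0.253), with -0.02 to -0.03 in pairs 3, 4 and 6 and -1.32 in pair 1.

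ID2 did not differ detectably at either probe set. The brighter, Bt.2415.1.S1_at, gave 561, 1510 and 1851 (lowest, median, highest) in HZ and 604, 1088 and 2057 in RZ. The ranges overlapped almost fully, and HZ was the higher zone in 4 of 6 pairs. The difference was 0.22 ± 0.18 (SE, limma adjusted p = 0.548; 95% interval -0.19 to 0.63). The dimmer, Bt.2415.2.S1_at, gave 0.16 ± 0.15 (adjusted p = 0.570), also higher in 4 of 6 pairs. The lowest array of both zones at the brighter probe set was that of pair 6.

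Whether members of 1 family moved apart was tested on the differences themselves. For 12 comparisons at the brightest probe sets, an exact two-sided sign-flip test over the 6 pairs was used, in which 0.03125 is the smallest possible p. That value was reached in 5 of the 12, all with the same sign in 6 of 6 pairs, and 0 passed after Benjamini-Hochberg adjustment (adjusted p = 0.0750 for those 5). With so high a smallest p, most of the 12 would have to reach it for any to pass. No lack of a difference is therefore read from the adjusted values. ID3 minus ID2 was -1.18 (95% interval -1.82 to -0.54), and ID1 minus ID2 was -1.30 (-2.36 to -0.24). ID3 minus ID1 was 0.12 (-0.45 to 0.68; exact p = 0.8125). Among the receptors, ACVR1 minus BMPR1A was -0.71 (-1.16 to -0.26), ACVR1 minus BMPR2 was -1.27 (-1.89 to -0.65) and BMPR1A minus BMPR2 was -0.56 (-0.92 to -0.20). These sentences give differences of differences, not of levels. The gaps depended on the probe set that stood for a gene, a choice examined after the data were seen. ACVR1 minus BMPR1A ran from -1.45 to -0.0437 over 4 choices, the latter with the BMPR1A probe set that fell. BMPR1A minus BMPR2 ran from -1.33 to 0.33 and ACVR1 minus BMPR2 from -2.11 to -0.38, over 6 choices each. ID1 minus ID2 ran from -1.30 to -0.58, ID3 minus ID2 from -1.18 to -1.13, and ID3 minus ID1 from -0.55 to 0.12. Over all 33 choices, 16 had the smallest possible exact p and 0 passed after adjustment (adjusted p = 0.0645 for those 16). The same limit holds for them, as most of the 33 would have to reach that value. Among the ligands at their brightest probe sets, BMP2 minus BMP7 was -0.79 (exact p = 0.0625, adjusted p = 0.125), and the other 5 comparisons had exact p-values from 0.156 to 0.969. The interval of BMP4 against BMP7 ran from -0.51 to 0.59. With the dimmer BMP7 probe set, the one that rose, BMP2 minus BMP7 was -0.77 and BMP7 minus GDF5 was 0.60. Both had the same sign in 6 of 6 pairs (exact p = 0.03125, adjusted p = 0.0645). BMP4 minus BMP7 was then 0.05 (exact p = 0.8125).

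Of 77 further genes listed for the BMP pathway, 32 were measured here, and ACVRL1 rose and FSTL3 fell by their brightest probe sets, with 30 not passing. That is 6.25%, beside 7.73% of all genes by their brightest probe set. Listed genes with no probe set under their symbol alone, and so not measured, include SMAD1, SMAD9, SMAD6, SMAD7, NOG, CHRD, GREM1 and RUNX2. The annotation gave no symbol for 10638 probe sets. ACVRL1, or ALK1, is a type I receptor for BMP9 and BMP10 best known from blood vessels. Its signal in HZ was 143, 130, 103, 147, 198 and 228 in pairs 1 to 6, and in RZ 19.3, 45.1, 27.3, 77.6, 86.7 and 22.9. All 6 HZ arrays lay above every RZ array. The rise of 1.57 ± 0.24 (SE, limma adjusted p = 0.00844) passed in all 6 fits with a pair left out (highest adjusted p = 0.0295) and was 1.72 within pairs 1 and 2 and 1.49 within pairs 3 to 6.

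FSTL3, a secreted inhibitor of activins and some BMPs, was lower in HZ. Its signal in HZ was 45.7, 121, 171, 146, 203 and 198 in pairs 1 to 6, and in RZ 318, 239, 268, 359, 433 and 393. No HZ array reached the lowest RZ array. It fell by 1.19 ± 0.23 (SE, limma adjusted p = 0.0176), and the call was lost without pair 4 or 5 (adjusted p = 0.0556 and 0.0525), with a constant of 1 (0.0652) and with the deposited ratio (0.0742). Within pairs 1 and 2 the difference was -1.67, and within pairs 3 to 6 it was -0.95.

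**Figure D4:**
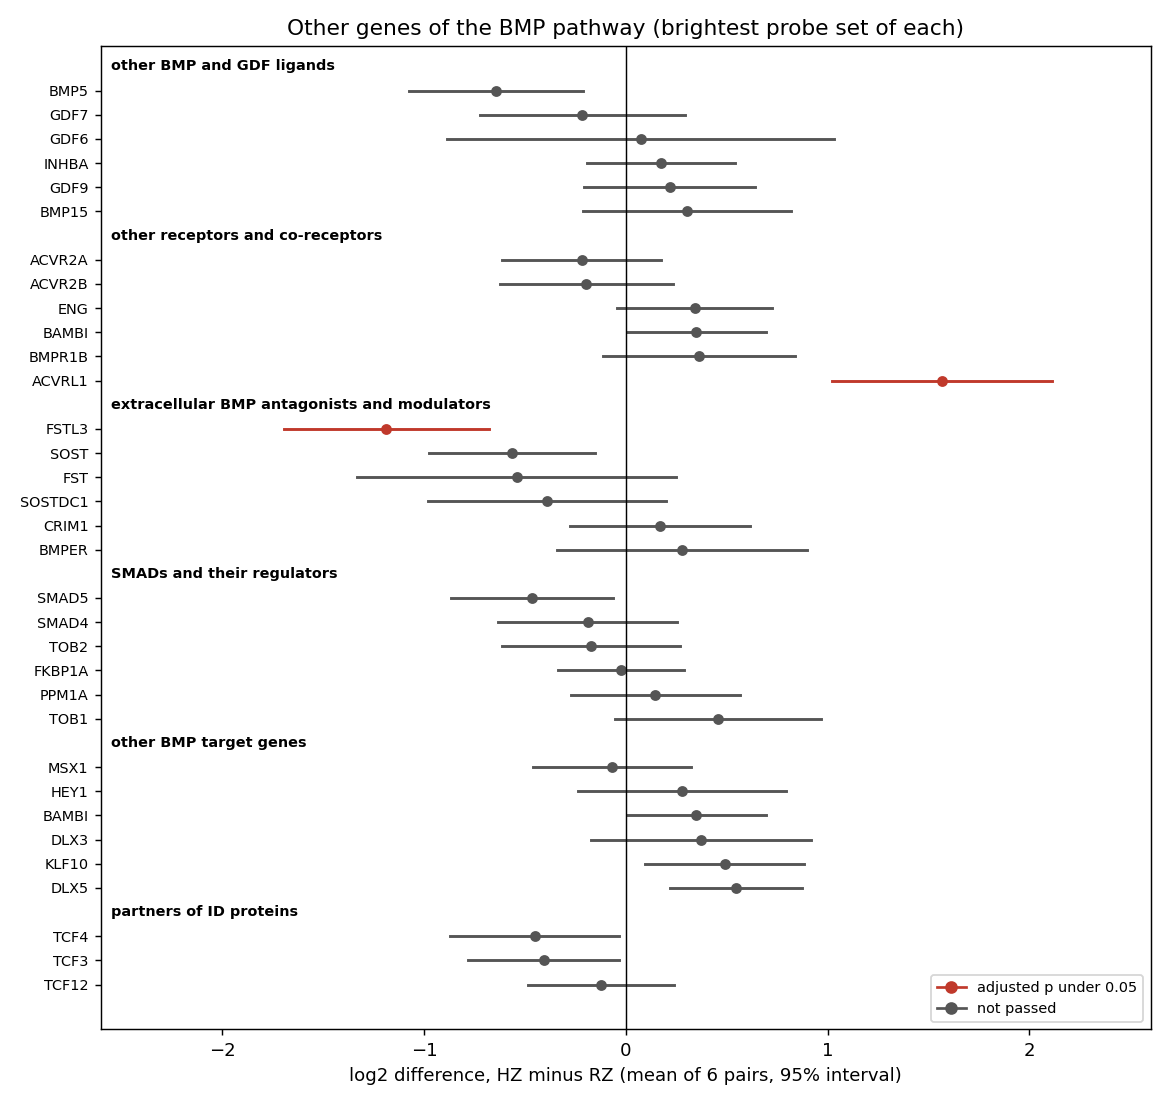
Difference between zones (HZ minus RZ, log2(signal + 16), mean of 6 pairs with 95% interval) of the other measured genes of the BMP pathway, by list; red marks an adjusted p under 0.05, and BAMBI stands in 2 lists. ACVRL1 at 1.57 and FSTL3 at -1.19 are the 2 that passed, and the others lie between -0.64 and 0.55.

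The other pathway groups gave no calls in these limma fits. Of 6 further BMP and GDF ligands (median 0.12), 0 passed and 1 had an unadjusted p under 0.05, BMP5, a ligand of cartilage condensations, at -0.64 ± 0.19 (SE, adjusted p = 0.0826). INHBA, the activin A subunit, gave 0.17, and GDF9 and BMP15, ligands best known from the ovary, gave 0.22 and 0.30. In the 6 receptors and co-receptors (median 0.35), ACVRL1 apart, BAMBI, a decoy receptor, gave 0.35 ± 0.15 (adjusted p = 0.221), ENG 0.34, BMPR1B 0.36 and the type II receptor ACVR2A -0.22. Of 6 secreted antagonists and modulators (median -0.47), FSTL3 apart, the sclerostin gene SOST gave -0.56 ± 0.18 (adjusted p = 0.104), FST, the activin-binding follistatin, -0.54, SOSTDC1 -0.39 and BMPER 0.28.

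The measured genes that act inside the cell did not pass either. Of 6 SMADs and regulators (median -0.10), 0 passed and 1 had an unadjusted p under 0.05, SMAD5, which carries the BMP signal, at -0.46 ± 0.18 (SE, adjusted p = 0.164). Its other probe set gave 0.26. The common partner SMAD4 stood at -0.19, the anti-proliferative protein TOB1 at 0.46, and TOB2 at -0.17. Of 6 other target genes (median 0.36), 0 passed and 3 had an unadjusted p under 0.05. DLX5, a homeobox factor of hypertrophic chondrocytes and osteoblasts, was higher in HZ in 6 of 6 pairs at 0.55 ± 0.15 (adjusted p = 0.0573), and KLF10 gave 0.49, DLX3 0.37 and BAMBI 0.35. The 3 helix-loop-helix partners of ID proteins (median -0.41; 0 passed, 2 with an unadjusted p under 0.05) were each lower in HZ in 5 of 6 pairs, TCF4 at -0.45 ± 0.19 (adjusted p = 0.190), TCF3 at -0.41 and TCF12 at -0.12.

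ID1, ID3 and ACVRL1 are also expressed by endothelial cells, so markers of other cells were set beside them. Of 7 endothelial markers, PECAM1 fell, at -1.06 ± 0.23 (SE, limma adjusted p = 0.0279, lower in 5 of 6 pairs), 0 rose and 6 did not pass. The PECAM1 call was kept in 1 of the 6 fits with a pair left out, and the other PECAM1 probe set passed at -1.36. The median difference of the 7 was -0.11. Their summed signal was 255 to 581 in HZ and 517 to 803 in RZ, and lower in HZ in 6 of 6 pairs; PECAM1 alone averaged 163 in HZ and 350.0 in RZ and weighs most in that sum. No endothelial marker was at 0, while VWF was near the bottom, at 7.86 ± 3.42 in HZ and 5.93 ± 1.78 in RZ (SD, n = 6). Of 6 perichondrial and fibroblast markers, PDGFRA fell (kept in 3 of those 6 fits) and 5 did not pass. The 2 other probe sets of PDGFRA gave 0.09 and 0.14 and did not pass. The summed signal of the 6 was 4334 to 6844 in HZ and 6269 to 21666 in RZ, lower in HZ in 6 of 6 pairs. Of 8 macrophage and blood cell markers, AIF1, C1QA, C1QB, C1QC and CSF1R rose, PTPRC fell and 2 did not pass. With each pair left out in turn, AIF1, C1QB and C1QC passed in 6 of 6 fits, C1QA in 4, and CSF1R and PTPRC in 1, and without the pair block none of these 6 passed (adjusted p = 0.0614 to 0.168). The 2 other probe sets of PTPRC gave -0.24 and 0.19 and did not pass. CD14 did not pass at its brightest probe set, but its other probe set passed at -1.02. The list's median was 1.34, with sums of 1375 to 3079 in HZ and 986 to 2675 in RZ, higher in HZ in 4 of 6 pairs. Of 3 measured osteoclast markers, ACP5 (kept in 2 of the 6 fits) and CTSK (in 6) rose. The sums were 7104 to 9958 in HZ and 2272 to 5645 in RZ, higher in HZ in 6 of 6 pairs. CTSK alone averaged 6683 in HZ and 2522 in RZ and weighs most in them. The 2 other probe sets of ACP5 gave 0.49 and 0.79 and did not pass. Of 3 measured osteoblast markers, DMP1 rose (kept in 1 of the 6 fits) and 2 did not pass. Their sums were 697 to 1201 in HZ and 432 to 7563 in RZ, higher in HZ in 2 of 6 pairs. The part of these cells in the differences of the BMP genes was not tested.

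The probe sets whose signal over the 12 arrays most resembled those of ACVR1 and ID3 were taken among named probe sets with a mean signal of at least 64. A difference between zones or pairs that 2 probe sets share raises their correlation, and these values are a description. For ACVR1 probe set 1 they were SERPINE2, a protease inhibitor (Pearson r = 0.968), IL1RAP, a subunit of the interleukin-1 receptor (0.961), and BBS7, a protein of the primary cilium (0.955). SERPINE2 signals were 4816 ± 1524 in HZ and 8305 ± 1095 in RZ, and IL1RAP signals 247 ± 87.9 and 661 ± 250 (SD, n = 6). For ID3 they were the lymphatic growth factor VEGFC (0.939), the cytokine IL6 (0.909) and ARHGEF2, which activates RHOA (0.903). VEGFC signals were 78.3 ± 20.1 in HZ and 135.6 ± 47.5 in RZ, and IL6 signals 284 ± 169 and 971 ± 1042 (SD, n = 6).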

How the data were processed

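The authors deposited 1 linear ratio per probe set and array, and per the labels the RNA was made into biotin-labelled cRNA with a MessageAmp II kit. How probes were summarised and normalized is not given in the sources used here. For 21901 of 24128 probe sets (90.8%), including all 17 examined, the ratio's divisor was the probe set's median over the 12 arrays. Deposited ratios fall on whole multiples of a step, which gave each divisor and thereby a signal for all probe sets but 1 control; in simulated probe sets 99.9% were right. That 1 step is 0.1 signal units is an assumption, which sets the weight of the added constant of 16. Unit and scale therefore rest on the values, and the planned test, written for intensities or such rebuilt signals, was kept. No further normalization was made.

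Tests used limma 3.58.1 in R 4.3.3, with the pair as a fixed block. Within each pair, the deviations of both arrays from their zone means correlated (0.124 to 0.447, all above 0.1). The series description speaks of pairs. The correlation was lowest in pair 3, where HZ-3 was not closest to its own RZ array, while every other HZ array was. Both arrays of a pair also lie in the same group by step of the ratios, so these correlations cannot tell pairing from group. Precision is limited by the number of arrays. Symbols came from the platform's table; 16 of the 17 probe sets matched RefSeq assembly ARS-UCD2.0 by Entrez identifier with the same symbol, and that of GDF5 matched by symbol only. All probe sets of the 10 genes are named, with each gene of the other lists that passed by its brightest probe set, up to 4 more per list with the smallest p, and the 3 probe sets most like each of ACVR1 and ID3. Alternatives were other constants, the deposited ratio itself, quantile normalization, a filter at a mean signal of 64, no block, array weights, left-out pairs, the 2 groups of pairs and other probe sets of a gene. The members and gene lists were chosen with earlier results of these data known.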

Additional observations from a re-analysis of the deposited data

Results flagged for a closer look

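In 34 sets of 6 arrays (17 probe sets in 2 zones), Dixon's test marked 1 array as far from the others; the test marks a share of about 0.05 by chance. It was HZ-1 in the dimmest BMPR2 probe set, at 37.3 beside 5.19 to 8.19 on the other HZ arrays.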

How the results depend on the processing

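The count of member probe sets that rose (1) became 0 with a constant of 1, with the deposited ratio, without the pair block and within either group of pairs, and 2 with the filter at 64 and with array weights; leaving out a pair gave 0 to 1. In the limma fits with 0 called, 1 to 4 probe sets were higher in HZ with an unadjusted p under 0.05. The count that fell (4) became 2 with a constant of 1, 1 with the deposited ratio, 2 without the pair block, 0 within pairs 1 and 2 (6 with an unadjusted p under 0.05) and 1 within pairs 3 to 6; leaving out a pair gave 2 to 3. Without pairs 3 and 4, whose HZ arrays had the highest actin 3' to 5' ratios, a setting added after the data were seen, 0 rose and 0 fell (4 and 6 with an unadjusted p under 0.05), as for the other pathway genes (6 and 4). The differences themselves there were -1.03 and -1.50 for the ACVR1 probe sets, -0.99 for ID3, -0.67 for BMPR1A probe set 2 and 0.87 for BMP7 probe set 2.

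Over all probe sets, 782 rose and 712 fell. These became 368 and 215 with a constant of 1, 315 and 163 with the ratio, 505 and 326 without the block, 5 and 13 within pairs 1 and 2, 301 and 103 within pairs 3 to 6, and 91 and 48 without pairs 3 and 4. The falls numbered 1120 with a constant of 64 and 1308 with the filter. With a pair left out, 334 to 650 rose and 223 to 895 fell. Of the other pathway genes 1 rose and 1 fell. Risers were 2 with a constant of 64, quantile normalization, the filter or array weights, and 0 within either group (3 with an unadjusted p under 0.05 in each). Fallers were 2 with the filter or array weights, 0 with a constant of 1, with the ratio (5 with an unadjusted p under 0.05 in each) and within either group (2 in each), and 0 to 2 with a pair left out.

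BMP2 (0.01) turned to -0.0148 with array weights and -0.0804 within pairs 1 and 2, and ran from -0.0615 to 0.116 with a pair left out. GDF5 (0.19) turned to -0.40 within pairs 1 and 2 and ran from -0.0232 to 0.334. BMP4 minus BMP7 (0.04) turned to -0.0469 with a constant of 64 and ran from -0.168 to 0.122; ID3 minus ID1 ran from -0.0844 to 0.216 and BMP2 minus GDF5 from -0.385 to 0.00702. With other probe sets, ID3 minus ID1 turned to -0.55 and BMPR1A minus BMPR2 to 0.33. The other member probe sets kept their direction in every setting run. The cause of these changes was not tested. The differences within groups came from a fit of all arrays, but each rests on the pairs of its own group. Fewer probe sets enter the filtered fit. Low signal limits BMPR2 probe set 3 most, which had the lowest mean signal of the 17.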
